A study of Homo sapiens with 6 samples.

Results

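The germinal centre kinases are a branch of the STE20 protein kinases. Here 10 of their human genes, of 18132 genes measured, were followed on 41 probe sets of an Affymetrix expression array that held 49293 probe sets in all. They are MAP4K5, whose transcript was the target of the knockdown, and 9 relatives: MAP4K1, MAP4K4, MINK1, TNIK, STK3, STK4, STK24, STK25 and STK26. A probe set was taken when the platform annotation gave exactly 1 gene symbol and that symbol was among the 10, and each gene had 2 to 6 such probe sets. The comparison asks whether the transcript of any relative differed where MAP4K5 was reduced.

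Total RNA came from A375, an established human melanoma line grown in DMEM with serum and given no treatment. Of 6 arrays, 3 held A375 cells (control) and 3 held A375 cells in which a short hairpin RNA stably reduced MAP4K5 (knockdown). Whether the controls carried a vector, whether the knockdown line was a clone or a pool, and the hairpin's sequence are not stated in the labels, so loss of MAP4K5 and other effects of making the line cannot be told apart. Each group is labelled as biological replicates 1 to 3 without saying how cultures were separated, so p-values speak only to the spread among these 6 arrays.

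Germinal centre kinases carry a kinase domain at the amino-terminal end, and most of them have a regulatory carboxy-terminal part. The MAP4K and related kinases can act above the MAP3K and MAP2K steps that lead to the kinase JNK. STK3 and STK4 (MST2 and MST1) are the core kinases of the Hippo pathway, which phosphorylate LATS kinases and MOB1 proteins and so restrain the coactivators YAP1 and WWTR1. MAP4K family kinases can also phosphorylate LATS kinases, and STK24, STK25 and STK26 bind the scaffold protein PDCD10 and associate with striatin-containing phosphatase complexes (STRIPAK).

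Levels are linear intensities from RMA, a method that corrects background, equalises the distribution of values across arrays and combines the probes of a set. Array medians lay between 4.85 and 4.94. A gene was read by its probe set with the highest mean over the 6 arrays, and the median of these gene means over 18132 genes was 8.68. Differences are given as knockdown minus control in log2 units, with their standard error (SE), from a limma fit across all genes, or across all probe sets where a single probe set is described, and "called" means a Benjamini-Hochberg adjusted p under 0.05. RMA compresses differences at dim probe sets, and the levels of different genes are not compared, since probes differ in brightness. Control replicate 2 stood nearer to the knockdown arrays (correlation 0.993 to 0.994 across genes) than to controls 1 and 3 (0.992 each), so its value is given for each member. Of 11 measured melanoma and melanocyte markers, 6 had a mean at or above the median gene (MITF, SOX10, S100B, PAX3, AXL and NGFR), while the pigment genes PMEL, MLANA, TYR and TYRP1 lay between 2.34 and 3.90 on every array. None of 8 blood cell markers or 8 fibroblast markers reached the median gene, and the summed level of the blood cell list was 22.7 to 23.8 in control and 22.9 to 23.2 in knockdown arrays. The fibroblast list summed to 31.5 to 31.7 and 28.4 to 30.3. Markers did move with the groups in the remaining lists: of the melanoma markers MITF was called higher (0.99) and SOX10 (-0.54) and S100B (-1.31) lower, and of 6 epithelial markers KRT14 (1.09) and KRT18 (0.69) were called higher, while EPCAM and CDH1 lay between 2.06 and 2.88 on every array. Of the 6 fits that left out 1 array, the SOX10 call held only without control 2, the MITF call in the 3 that left out a control, and the other 3 calls in all 6. The epithelial list summed to 1193 to 1343 in control and 1900 to 2205 in knockdown arrays. KRT18 alone made 1165 to 1300 and 1855 to 2153 of these sums. KRT14 and KRT18 had only probe sets that may cross-bind (suffix _x_at or _s_at). The part of these marker shifts in the results on the kinases was not tested.

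MAP4K5, a kinase that can activate the JNK pathway, fell at every one of its 3 probe sets. At the brightest the controls measured 77.7, 78.1 and 76.3 and the knockdown arrays 19.7, 18.8 and 20.3. All 3 knockdown arrays lay far below all 3 controls, and control 2 lay with the other controls. The mean fell from 77.4 ± 0.95 to 19.6 ± 0.74 (SD, n = 3 each), which is 3.95-fold lower and left 25.3% of the control level. In the limma gene fit this was a log2 difference of -1.98 ± 0.08 (SE; adjusted p = 2.9e-05; 95% interval -2.16 to -1.81).

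The other MAP4K5 probe sets also fell, by different amounts. One measured 32.6, 32.5 and 30.1 in control and 7.65, 6.07 and 7.72 in knockdown cells, which left 22.5% of the control level (log2 difference -2.16 ± 0.11, SE). The dimmest set in control cells measured 24.9, 29.3 and 27.3 in control and 8.83, 9.92 and 8.04 in knockdown cells, which left 32.9% (-1.61 ± 0.11). No control array overlapped a knockdown array at any of the 3. Exact two-sided permutation gave p = 0.1 at each, the floor for this number of arrays, and each was called in the fit of all probe sets and in every fit that left out 1 array. Over all 16 alternative fits the gene stayed called, and among 749 genes called lower it had the tenth largest fall.

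MAP4K5 was the only one of the 10 genes called, 1 of 10 beside 7.83% of all genes (4.13% called lower and 3.7% called higher). None of the 9 relatives was called in either direction by limma. At an unadjusted p under 0.05, 0 relatives were higher and 3 were lower (MAP4K4, STK3 and STK26). Of all 18132 genes 23.5% passed that mark, 2242 of them higher and 2014 lower. The knockdown arrays lay below every control in 4 of the 10 genes (MAP4K5 and the same 3 relatives) and above every control in 0, beside 13.2% and 14.9% of all genes. The median difference of the 9 relatives was -0.06, beside 0.01 over all genes. Without control replicate 2 the count of called members was 2, STK24 being added, and both lower, beside 20.6% of all genes (10.1% lower and 10.5% higher). With array weights it was 3, STK3 and STK24 being added, all lower, beside 17.1% of all genes (8.47% lower).

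**Figure D1:**
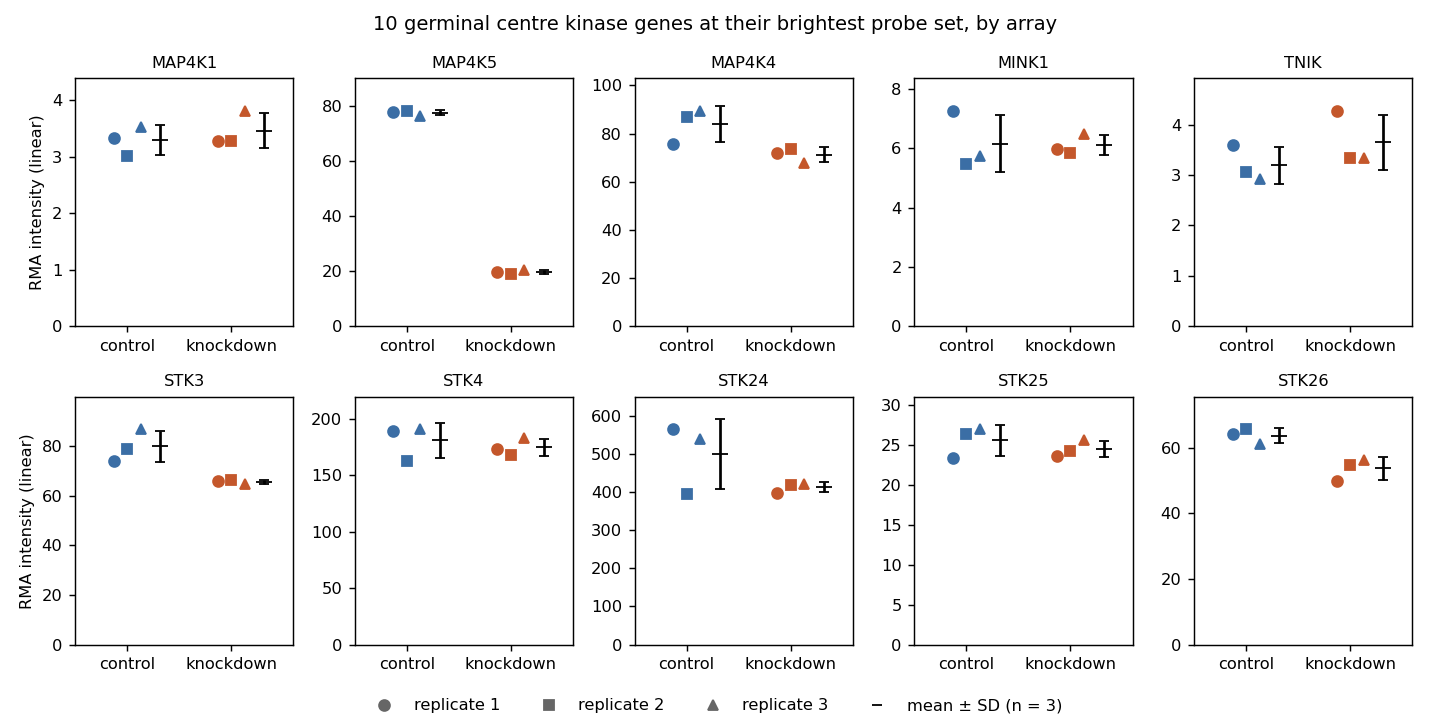
RMA intensity (linear axis from 0) of the 10 genes at the brightest probe set of each, by array; symbols mark replicates 1 to 3 and bars the mean ± SD of 3 arrays. MAP4K5 drops from 77.4 to 19.6, which leaves 25.3% of the control mean, and for MAP4K4, STK3 and STK26 all 3 knockdown arrays lie below all 3 controls.

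MAP4K1 (HPK1), a MAP4K family kinase, is known mainly from blood cells. At its brightest probe set it measured 3.33, 3.02 and 3.53 in control and 3.27, 3.27 and 3.81 in knockdown arrays, so the groups overlapped. Its 3 probe sets all lay below the median gene, between 2.37 and 3.81 on every array, and their differences ran from -0.12 to 0.07. The gene's difference was 0.07 ± 0.10 (SE, limma adjusted p = 0.751), and its sign turned in 2 alternative fits. With levels this near the bottom of the range, expression and background cannot be separated in these values.

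MAP4K4 (HGK), a kinase linked to JNK signalling and cell motility, was read by 5 probe sets, all above the median gene and all lower in mean in knockdown cells. The brightest measured 75.6, 86.8 and 89.5 in control and 72.0, 73.7 and 67.6 in knockdown arrays. These groups did not overlap, although control 1 stood within 2 units of knockdown 2. The difference was -0.24 ± 0.09 (SE; limma adjusted p = 0.170), so it did not pass the test. Its 95% interval ran from 73.2% to 98.4% of the control level. The MAP4K4 probe set with the largest difference measured 55.6, 41.4 and 57.6 in control and 40.6, 32.9 and 37.1 in knockdown arrays (-0.47 ± 0.14, adjusted p = 0.105). There control 2 stood close to knockdown 1, and without control 2 the set was called (-0.62, adjusted p = 0.00882).

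MINK1, a close relative of MAP4K4 and TNIK, lay below the median gene at both of its probe sets. It measured 7.27, 5.48 and 5.73 in control and 5.99, 5.86 and 6.48 in knockdown arrays. Control 1 was the highest of the 6 and the other controls the lowest, so the groups overlapped. The difference was -0.0024 ± 0.12 (SE, limma adjusted p = 0.994), with an interval from 82.8% to 120.4% of control. Its sign turned in 6 alternative fits.

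TNIK, a kinase that acts with TCF and beta-catenin in Wnt signalling, was the only relative with a probe set called higher. That set measured 2.54, 2.97 and 2.89 in control and 4.44, 3.56 and 4.11 in knockdown arrays, and the groups did not overlap. Its difference was 0.52 ± 0.11 (SE), a 1.44-fold higher mean, with a limma adjusted p of 0.0371 over all probe sets. A further TNIK set measured 2.96, 2.93 and 2.97 in control and 4.28, 3.62 and 3.51 in knockdown arrays (0.36 ± 0.10, adjusted p = 0.0822). The brightest, which stands for the gene, measured 3.60, 3.06 and 2.91 in control and 4.28, 3.33 and 3.34 in knockdown arrays, and here control 1 overlapped the knockdown group (0.19 ± 0.13, adjusted p = 0.433). All 3 differences were above 0, and knockdown 1 was the highest array at each. Every TNIK value lay at or under 4.44, below the median gene. Of the 6 fits that left out 1 array, the called set kept its call only in the one without control 2 (differences 0.45 to 0.61 over the 6).

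STK3 (MST2), a core Hippo kinase, was lower in mean at all 5 of its probe sets. The brightest measured 74.3, 78.8 and 86.9 in control and 66.1, 66.4 and 64.9 in knockdown arrays. All knockdown arrays lay below all controls and within 2 units of each other. The difference was -0.28 ± 0.09 (SE; limma adjusted p = 0.0914), and the interval ran from 71.8% to 94.5% of control. The second STK3 set, at 64.2, 62.7 and 57.0 in control and 46.4, 49.7 and 53.5 in knockdown arrays, also did not overlap (-0.30 ± 0.10, adjusted p = 0.123).

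STK4 (MST1), the partner of STK3, did not separate the groups. Its brightest probe set measured 189.3, 163.0 and 190.8 in control and 173.1, 168.4 and 182.8 in knockdown arrays. Control 2 was the lowest array and the knockdown arrays fell between the controls. The difference was -0.05 ± 0.09 (SE, limma adjusted p = 0.816), with an interval from 83.5% to 112.0% of control. Of its dimmer sets, 3 of 4 spread widely among the controls. One measured 51.5, 25.5 and 37.2 in control and 31.0, 36.6 and 35.9 in knockdown arrays, and another 17.5, 9.77 and 13.9 in control and 11.1, 12.6 and 12.4 in knockdown arrays. At both, control 1 was the highest and control 2 the lowest of the 6 arrays, while the pair of brightest sets and the dimmest set spanned less among the controls.

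STK24 (MST3), a PDCD10-binding kinase, showed the dependence on control 2 most plainly. Its brightest set measured 566.2, 397.1 and 540.5 in control and 398.3, 418.4 and 423.4 in knockdown arrays. Control 2 was the lowest array of all, and controls 1 and 3 lay above every knockdown array. With all arrays the difference was -0.26 ± 0.13 (SE) and was not called (limma adjusted p = 0.292). Without control 2 it was -0.42 ± 0.08 and was called (adjusted p = 0.00774). A second STK24 set also had control 2 lowest, at 42.3, 29.8 and 40.3 in control and 30.6, 33.0 and 30.1 in knockdown arrays. The dimmest of its 4 sets measured 5.87, 5.34 and 5.75 in control and 5.02, 4.71 and 4.67 in knockdown arrays, with no overlap (-0.24 ± 0.09, adjusted p = 0.174).

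STK25 (SOK1 or YSK1), a kinase found at the Golgi apparatus, was not called at any probe set. Its brightest set measured 23.4, 26.4 and 26.9 in control and 23.7, 24.3 and 25.6 in knockdown arrays, with overlap (-0.06 ± 0.09, SE; limma adjusted p = 0.753). Of its 6 sets 1 separated the groups, at 20.6, 23.6 and 20.0 in control and 17.2, 17.8 and 18.7 in knockdown arrays (-0.26 ± 0.10, adjusted p = 0.187).

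STK26 (MST4) measured 64.0, 65.6 and 61.1 in control and 49.7, 54.8 and 56.3 in knockdown arrays at its brightest set. The groups did not overlap, and control 2 was the highest array. The difference was -0.25 ± 0.08 (SE), not called (limma adjusted p = 0.123), with an interval from 73.7% to 96.5% of control. Another STK26 set, at 49.8, 53.1 and 47.3 in control and 42.0, 51.0 and 43.8 in knockdown arrays, overlapped (-0.14 ± 0.10). The brightest set of STK26 ends in _x_at and may cross-bind. Without sets ending in _x_at or _s_at, STK26 was read by this other set (limma adjusted p = 0.507). The brightest sets of MAP4K4, STK3 and STK24 (_s_at) and of STK4 (_x_at) may also cross-bind. Without such sets these genes stood at -0.25, -0.30, -0.25 and -0.10, and none was called.

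**Figure D2:**
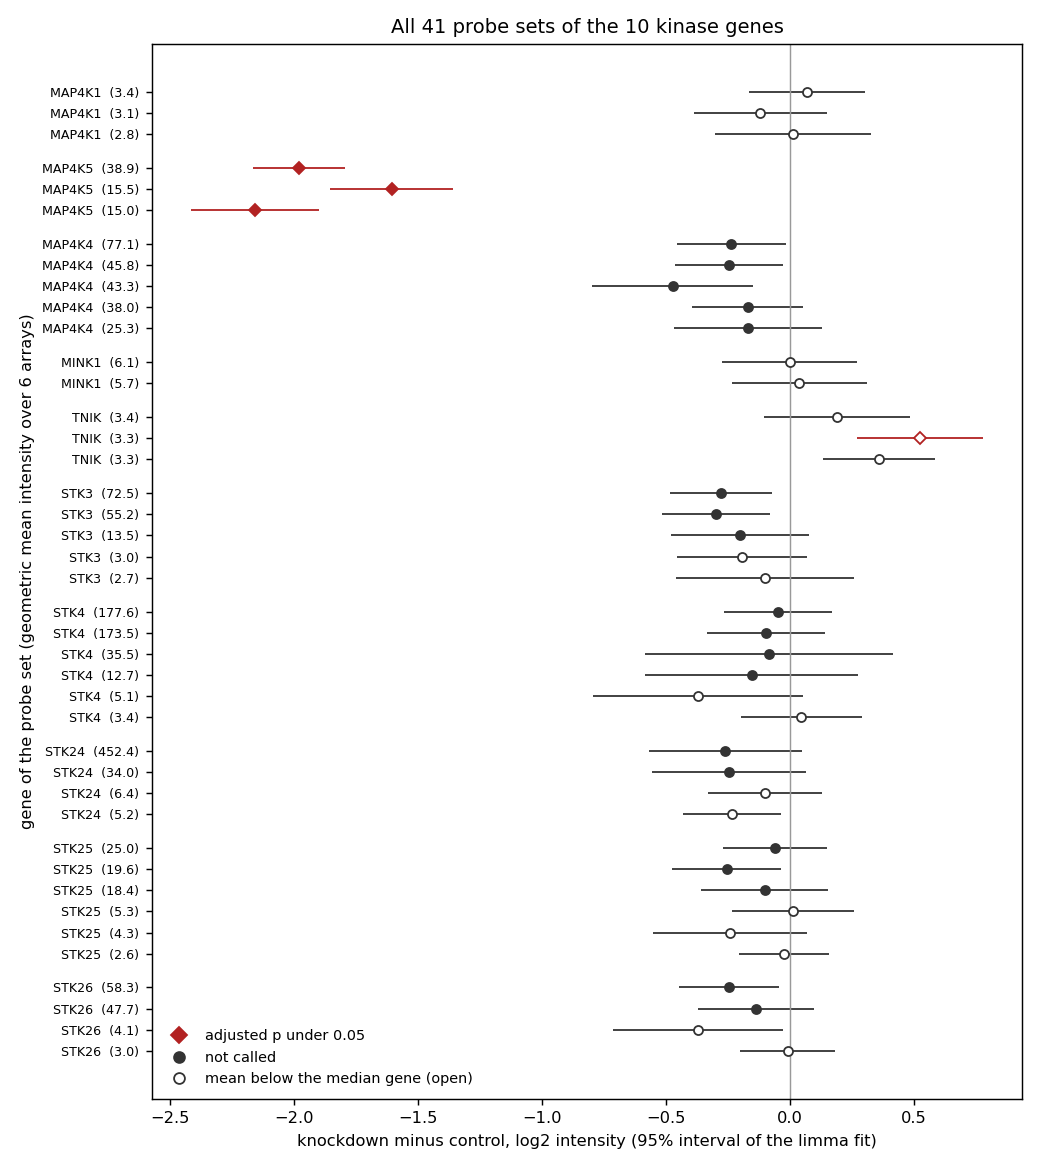
Knockdown minus control on the log2 intensity scale, with the 95% interval of the limma fit, for each of the 41 probe sets; the number after each gene is the geometric mean intensity over 6 arrays, open symbols lie below the median gene and diamonds passed an adjusted p of 0.05. The 3 MAP4K5 sets stand apart at -2.16 to -1.61, and the only other diamond is a dim TNIK set at 0.52.

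Over the 41 probe sets, 3 were called lower (all of MAP4K5) and 1 higher (TNIK), a total of 4 beside 4.43% of all probe sets. Of all probe sets 2.46% were called lower and 1.98% higher. The groups did not overlap at 11 sets that were lower and 2 that were higher, beside 11.7% and 12.1% of all probe sets. Of the relatives' 38 sets, 30 had a difference below 0, and the median was -0.13, beside 48.8% below 0 and a median of 0.0048 over all probe sets. The 19 of these 38 sets with a mean at or above the median gene were all below 0, with a median of -0.20 and 0 called, beside 48.5% below 0 in the same range of the whole table. In that range 7 of the 19 reached an unadjusted p under 0.05, all lower, beside 17% of all probe sets there that did so and were lower. The remaining 19 held 11 below 0 and 8 above. Probe sets of a gene read the same transcripts, so these counts are not of independent measurements. Without control 2, 7 of the 41 were called, 6 lower and 1 higher, beside 13.4% of all probe sets (6.88% lower and 6.51% higher).

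For the 6 relatives above the median gene, the 95% intervals of the fit end at 98.4% (MAP4K4), 94.5% (STK3), 112.0% (STK4), 103.3% (STK24), 110.4% (STK25) and 96.5% (STK26) of the control level. These are intervals of single genes without adjustment, on an intensity scale that RMA compresses. These are the intervals of the brightest set of each gene. In the fit of all probe sets, intervals of further sets above the median gene reached higher for some genes. They went up to 109.3% (MAP4K4), 105.5% (STK3), 133.2% (STK4), 104.6% (STK24), 111.2% (STK25) and 106.9% (STK26). For TNIK, at its dim level, the interval of the brightest set reached 139.6%. In the fit of all probe sets those of its other sets reached 149.9% and, at the set called higher, 171.4%.

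**Figure D3:**
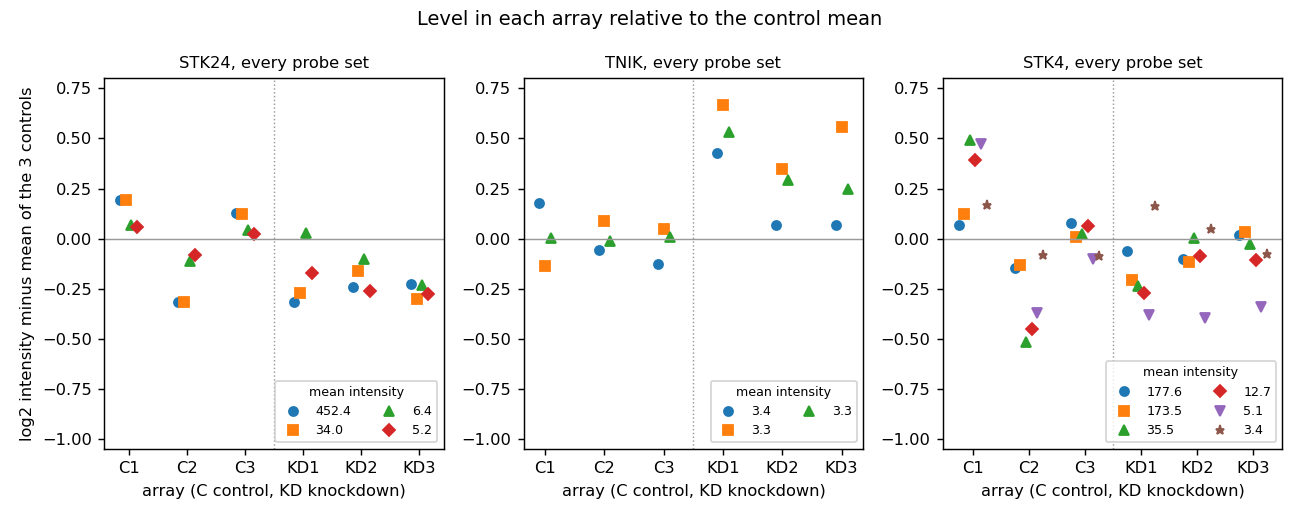
Log2 intensity of every probe set of STK24, TNIK and STK4 in each array, minus the mean of the 3 controls of that set (C1 to C3 control, KD1 to KD3 knockdown); the legend gives mean intensity. For STK24, control 2 lies with the knockdown arrays at the 2 brightest sets, for TNIK all 3 sets are highest in knockdown 1, and for STK4 3 of the 4 dimmer sets spread most among the controls.

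Partners of these kinases were read from 6 lists. Over 89 measured genes of 99 entries, 3 rose and 9 fell, and 77 were not called. Among all genes 7.83% were called, 3.7% higher and 4.13% lower. At an unadjusted p under 0.05, 12 list genes were higher and 12 lower, beside 2242 and 2014 of 18132 genes. The groups did not overlap at 13 that were higher and 15 that were lower, beside 14.9% and 13.2% of all genes. The median difference of the 89 was -0.02. Leaving out 1 array gave 3 to 19 called, the highest without control 2 (9 higher and 10 lower) and 3 without control 1, knockdown 1 or knockdown 3, 4 without knockdown 2 and 5 without control 3. Over all 18132 genes the same fits called 324 to 3732, also most without control 2 (20.6%). Of the 12 calls, 4 (MOB1A, WWC1, LEF1 and RAP2C) held when all probe sets of a gene were averaged. In the fit of all probe sets, ATF2, MOB1B, STRN and NCK2 had 0 sets called, and the other called genes 1 to 3. The lists were written from general knowledge and hold genes with opposing roles.

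Of 12 measured kinases of the same group outside the 10, 0 were called in either direction by limma, beside 7.83% of all genes. At an unadjusted p under 0.05, 0 were higher and 1 lower, beside 23.5% of all genes in either direction. Their median difference was -0.0016. TAOK3, a kinase of the TAO family, had the lowest difference, at 10.1, 13.1 and 9.44 in control and 8.24, 8.60 and 8.92 in knockdown arrays (-0.33 ± 0.13 SE, limma adjusted p = 0.164). MAP4K2 and MAP4K3 had no probe set with exactly 1 gene symbol in the annotation, so the counts of relatives do not cover them. Among 4 measured p21-activated kinases, the other branch of the STE20 kinases, 0 were called, also at an unadjusted p under 0.05, and differences ran from -0.10 to 0.07.

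Of 24 genes of the JNK cascade, 1 rose and 2 fell, beside 3.7% called higher and 4.13% lower of all genes. The remaining 21 were not called, and the list median was 0.02. CRKL, an adaptor protein related to CRK, measured 27.8, 33.7 and 27.8 in control and 41.2, 42.7 and 41.7 in knockdown arrays and rose by 0.50 ± 0.10 (SE, limma adjusted p = 0.0222). SPAG9, a JNK scaffold protein, measured 127.7, 131.0 and 129.4 in control and 100.4, 98.7 and 93.2 in knockdown arrays and fell by 0.41 ± 0.08 (adjusted p = 0.0191). ATF2, a transcription factor that JNK phosphorylates, measured 78.7, 83.6 and 69.2 in control and 53.6, 61.8 and 59.3 in knockdown arrays and fell by 0.40 ± 0.10 (adjusted p = 0.0476), but its difference was 0.08 and not called once probe sets that may cross-bind (suffix _x_at or _s_at) were left out. All 3 kept their calls only without control 2 among the fits that left out 1 array. The kinases JNK1 and JNK2 themselves (MAPK8 at -0.17 and MAPK9 at -0.09), their activator MAP2K4 (0.21) and the JNK target JUN (0.21) were not called, with adjusted p-values of 0.377, 0.705, 0.200 and 0.526. In the fit of all probe sets, 1 of 4 MAP2K4 sets was called.

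Of 21 Hippo genes, 1 rose and 3 fell, beside 3.7% called higher and 4.13% lower of all genes. The remaining 17 were not called, and the list median was -0.07. MOB1A, a scaffold that STK3 and STK4 phosphorylate and that activates LATS kinases, measured 249.2, 263.0 and 211.3 in control and 125.6, 123.6 and 127.5 in knockdown arrays. The groups did not overlap, and the knockdown mean was 52.1% of the control mean. It fell by 0.94 ± 0.10 (SE, limma adjusted p = 0.00191), and 3 of its 5 probe sets were called. Its paralog MOB1B measured 67.3, 67.4 and 78.3 in control and 55.3, 50.1 and 54.7 in knockdown arrays and fell by 0.41 ± 0.09 (adjusted p = 0.0367). WWC1 (KIBRA), an upstream activator of the pathway, measured 9.64, 9.12 and 9.35 in control and 14.1, 14.9 and 15.0 in knockdown arrays and rose by 0.64 ± 0.08 (adjusted p = 0.00359). FRMD6, a membrane-associated protein of the pathway, measured 100.4, 112.8 and 91.1 in control and 67.3, 70.5 and 74.0 in knockdown arrays and fell by 0.52 ± 0.10 (adjusted p = 0.0206), but its difference was -0.12 and not called once sets ending in _x_at or _s_at were left out.

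The MOB1A and WWC1 calls held in all 6 fits that left out 1 array, the FRMD6 call without control 2 or control 3 only, and the MOB1B call without control 2 only. The coactivators YAP1 (-0.05, limma adjusted p = 0.878) and WWTR1 (-0.48, adjusted p = 0.0702), the kinases LATS1 (-0.14, adjusted p = 0.504) and LATS2 (-0.16, adjusted p = 0.384) and the pathway targets CCN1 (-0.33, adjusted p = 0.293) and CCN2 (0.15, adjusted p = 0.337) were not called. Among the fits that left out 1 array, WWTR1 was called only without control 2. In the fit of all probe sets, 1 of its 3 sets was called.

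Of 17 STRIPAK and PDCD10-related genes, 1 rose and 1 fell, beside 3.7% called higher and 4.13% lower of all genes. The remaining 15 were not called, and the list median was 0.01. STRN, the striatin scaffold, measured 2.82, 3.88 and 3.32 in control and 4.90, 5.25 and 4.26 in knockdown arrays and rose by 0.53 ± 0.13 (SE, limma adjusted p = 0.0477), all below the median gene. STK38L, a kinase of the NDR family that MST kinases can phosphorylate, measured 25.6, 24.8 and 24.2 in control and 19.5, 20.9 and 19.3 in knockdown arrays and fell by 0.32 ± 0.08 (adjusted p = 0.0453). Both held only without control 2 among the fits that left out 1 array. Leaving out sets ending in _x_at or _s_at left both differences at 0.53 and -0.32, since neither gene was read by such a set. The adjusted p-values of that limma fit were 0.0506 and 0.0576, so neither was called there. PDCD10 itself stood at 296.9, 284.7 and 291.6 in control and 312.6, 303.9 and 301.6 in knockdown arrays (0.07 ± 0.07, adjusted p = 0.630).

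Of 11 Wnt and actin partners of TNIK, MINK1 and MAP4K4, 0 rose and 3 fell, beside 3.7% and 4.13% of all genes. The remaining 8 were not called, and the list median was -0.07. LEF1, a transcription factor that pairs with beta-catenin, measured 56.0, 53.0 and 65.1 in control and 23.9, 24.3 and 24.9 in knockdown arrays. It fell by 1.25 ± 0.10 (SE, limma adjusted p = 0.000449), was called in all 6 fits that left out 1 array, and had 3 of its 9 probe sets called. The size depended on the probe sets read: it was -0.65 once sets with the suffix _x_at or _s_at were left out and -0.38 when all its sets were averaged, both called. RAP2C, a small GTPase of the family that binds MAP4K4, MINK1 and TNIK, measured 118.8, 106.2 and 114.9 in control and 83.6, 84.9 and 82.9 in knockdown arrays and fell by 0.43 ± 0.08 (adjusted p = 0.0183). NCK2, an adaptor of the same kinases, measured 61.9, 68.4 and 65.2 in control and 46.6, 49.5 and 54.0 in knockdown arrays and fell by 0.38 ± 0.09 (adjusted p = 0.0388). Among the fits that left out 1 array, both calls held only without control 2, and NCK2 was not called once sets ending in _x_at or _s_at were left out (-0.27, adjusted p = 0.343). TCF7L2, the partner through which TNIK acts on Wnt targets, and CTNNB1, which encodes beta-catenin, were not called (-0.12 and 0.12, adjusted p = 0.395 and 0.693). In the fit of all probe sets, 1 of 7 TCF7L2 sets was called.

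**Figure D4:**
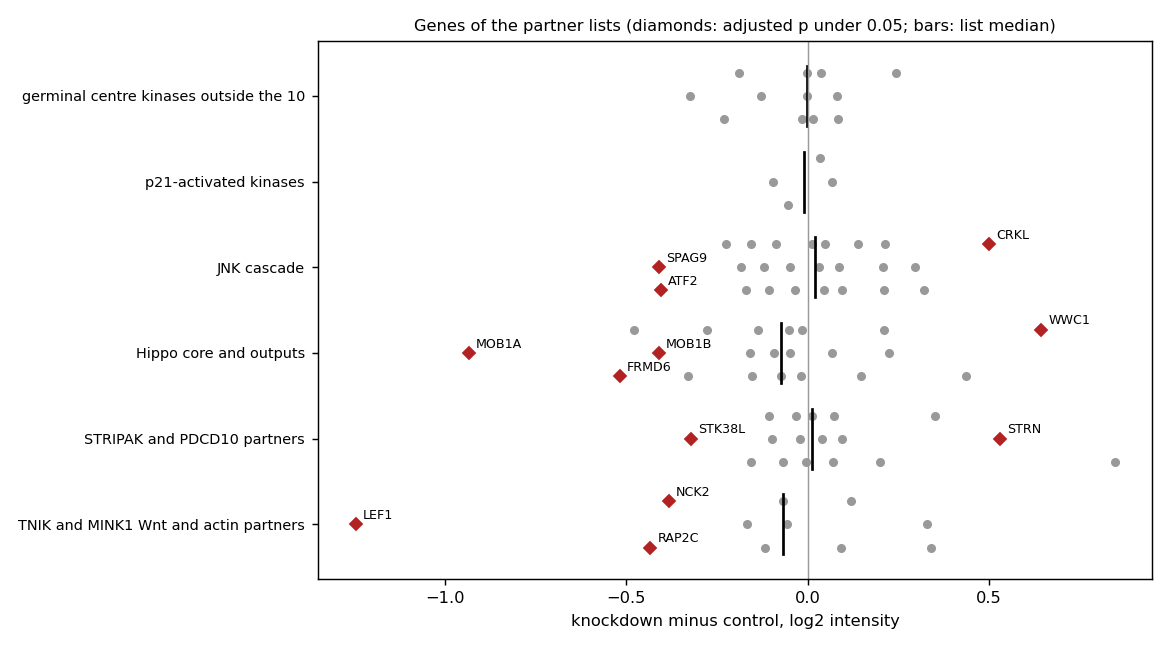
Knockdown minus control (log2 intensity) of each measured gene of the 6 partner lists; diamonds with names passed an adjusted p of 0.05, grey points did not, and vertical bars mark list medians. LEF1 and MOB1A lie farthest to the left among the called genes, at -1.25 and -0.94 (-0.65 and -0.94 without sets ending in _x_at or _s_at). WWC1 lies farthest to the right among the called genes, at 0.64. STRIP2, below the median gene and not called, lies farther right at 0.85. List medians lie near 0.

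By the likeness of levels over the 6 arrays, the genes closest to MAP4K5 among 9065 others with a mean at or above the median gene were AHCYL1, FBXL5, ROBO1, CNRIP1 and TMEM47, with Pearson r of 0.999, 0.998, 0.998, 0.998 and 0.998. The arrays form 2 groups, so this measure mostly orders genes by how far the groups lie apart against their spread, and it is given with no p. AHCYL1 measured 302.1, 303.5 and 305.4 in control and 228.9, 229.0 and 230.9 in knockdown arrays, and FBXL5 fell from 288.6 ± 5.36 to 201.0 ± 1.18 (SD, n = 3 each). ROBO1 fell from 159.1 ± 7.34 to 62.4 ± 3.15 but its difference was 0.08 and not called once sets ending in _x_at or _s_at were left out, where AHCYL1 also lost its call (-0.42, adjusted p = 0.0728). At all 5, as at MAP4K5, control 2 lay with the other controls.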

How the data were processed

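The deposited values are probe set intensities. Per the submitters' processing notes the authors made them with RMA; version, build and detection calls are not stated. The linear scale was read from the values (1.55 to 6658). The number of arrays limits the precision. Log2 was taken without a pseudocount. Of 49293 probe sets, 44988 had 1 symbol, 1832 several and 2473 none; Entrez identifiers matched to RefSeq (GRCh38.p14 table) changed 0 symbols, with 27 probe sets unmatched.

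Knockdown was compared with control by limma 3.58.1 (R 4.3.3; lmFit, eBayes) without covariates, with Benjamini-Hochberg adjustment over 18132 genes or all probe sets. Exact two-sided permutation tests were run on each of the 41 member probe sets and are printed for MAP4K5. The fit was tested on simulated arrays. Tables and plots used Python 3.11.15, pandas 2.3.3, numpy 2.4.6 and matplotlib 3.10.9. Named genes were the 10 members, up to 3 called rises and 3 called falls per list, and the 5 genes most like MAP4K5. TAOK3, PDCD10, STRIP2, JNK and Hippo genes that were not called, and the repeated probe sets, were chosen after their values were seen. Members and lists were chosen with earlier results of these data known. Alternatives were a replicate block, an intensity trend, array weights, 2 other scalings, leaving out the lowest 25% or 50%, a pseudocount of 8, averaging all probe sets per gene, leaving out sets ending in _x_at or _s_at, and leaving out each array.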

Additional observations from a re-analysis of the deposited data

How the results depend on the processing

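MAP4K5 kept its direction and call in all 16 alternatives, from -2.01 to -1.63. The count of member genes called was 3 with array weights (STK3 and STK24 added, both lower) and 1 to 2 when 1 array was left out. Member probe sets gave 3 to 7, the 7 without control 2, where 13.4% of all probe sets were called. Over all genes the count was 3103 with array weights and 324 to 3732 without 1 array. The partner lists gave 6 of 89 when all probe sets per gene were averaged, beside 1150 of 18132 genes. They gave 7 of 87 without sets ending in _x_at or _s_at, beside 1083 of 16701 genes, and 3 to 19 without 1 array. Differences near 0 changed sign: MAP4K1 stood at -0.014 with the mean of probe sets and -0.0048 without knockdown 3; MINK1 stood at 0.015 at a common median, 0.00083 after repeated quantile normalization, 0.018 with the mean of probe sets, and from -0.081 (without control 2) to 0.12 (without control 1) when 1 array was left out. ATF2 and ROBO1 stood at 0.076 and 0.084 without sets ending in _x_at or _s_at.

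Deviations from the group mean correlated at -0.08, 0.02 and 0.06 between arrays of the same replicate number. Between arrays of different number they correlated at -0.08 to 0.06. With deviations from means of 3 arrays, these values cannot decide whether same-numbered cultures were handled together. With the number as a block, 1 member gene, 3 member probe sets (TNIK lost), 1188 genes overall and 9 partner genes were called, and MAP4K5 stood at -1.98. No group holds more than 3 arrays, so single outlying arrays were not tested.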
